A study of Mus musculus with 15 samples.

Results

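The cells described here are Vwf Plvap endothelial cells (ECs) of the mouse aorta, a small population set apart by single-cell RNA counts. A barcode was kept when it held 200 to 7000 detected genes and at most 25% mitochondrial UMIs, where a UMI is 1 counted RNA molecule. It was called an EC when at least 3 of Cdh5, Pecam1, Kdr, Egfl7, Cldn5 and Tie1 had a UMI, Ptprc and Prox1 had none, and Col1a1, Lum and Pdgfra together had at most 1. It was a member when Vwf and Plvap each had at least 1 UMI, at least 1 of Lrg1, Slco2a1 and Adgrg6 had a UMI, and Cytl1 and Pgm5 had none. This rule found 255 members among 48087 ECs and 128019 kept barcodes, out of 130551 barcodes in 15 libraries. The levels of these genes chose the cells, so they are described and not tested.

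Endothelium differs along the vascular tree. Veins and venules are the sites where leukocytes leave the blood, and their endothelium is known for adhesion molecules and for a transcription program that depends on Nr2f2 (COUP-TFII). Vwf encodes von Willebrand factor, which is stored in endothelial granules and captures platelets, and Plvap encodes the protein of the diaphragms that span fenestrae and caveolae. The wall of the aorta is supplied by its own small vessels, the vasa vasorum, so a digest of whole aorta can hold venous, capillary and arterial ECs beside those of the aortic lumen.

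The libraries came from whole aortas of wildtype C57BL/6N mice of both sexes, perfused, cleared of perivascular fat, digested with collagenase and elastase, sorted for viable cells and loaded for 10x 3′ sequencing. Young mice (3 months in the design text, while the methods of the study give an older age) and old mice (27 months) received fisetin, a plant flavonol tested as a senolytic, or its vehicle by oral gavage with a pause between dosing weeks. Vehicle was given to 4 young (Y VEH) and 3 old (O VEH) libraries, and fisetin to 4 young (Y FIS) and 4 old (O FIS) ones. A group had 2 female (F1, F2) and 2 male (M1, M2) libraries, except O VEH, which had F1, F2 and M1. Each library pooled 3 mice per the labels, so differences between mice within a library cannot be seen, and p-values measure the spread between pools. Because cells were taken from the whole vessel, the place of a cell in the wall is not known from the counts.

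Libraries held 49964001 to 74587567 UMIs, and the members of a library gave 42213 to 251428 of them (median 89896). Y VEH had 7, 15, 17 and 18 members in F1, F2, M1 and M2, and Y FIS had 10, 19, 28 and 29. O VEH had 9, 43 and 8 in F1, F2 and M1, and O FIS had 14, 13, 13 and 12 in F1, F2, M1 and M2. Thus 1 library, O VEH F2, held 43 of the 60 members of its group. Members were deeper than the other ECs, with a median of 6177 UMIs against 3682, and this held in 14 of 15 libraries (in O FIS M1 the medians were 3088 and 3331). Among kept barcodes, 2098 sequences occurred in 2 or more libraries, 4 member barcodes were also seen in another library, and 0 were shared between members. A doublet caller marked 1 member, but it marked under 0.5% of cells in 3 libraries and cannot be relied on there.

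Several libraries stood apart in RNAs outside the rule. In O VEH F2 the long noncoding RNA Gm35533 reached 513 CPM (UMIs per 1000000 UMIs of the pooled cells of a type in a library) in members, against at most 9.41 in any other library, and in its other ECs it reached 220, against at most 0.881 elsewhere. Meis2, a homeodomain transcription factor, reached 1674 CPM in the members of O VEH F2 and 0 to 208 in those of the other libraries. The lipid phosphate phosphatase Plpp1 reached 2378 against 276 to 554. The O VEH F2 library was therefore high in the same RNAs inside and outside the members, with other ECs at 502 CPM for Meis2 and 1041 for Plpp1, each the highest of the 15 libraries. It was also the highest for adrenal cortex RNAs outside the members, with 9 such RNAs summing to 125 CPM over all its cells (38.8 to 69.2 elsewhere). In its other ECs they summed to 72.5 CPM (45.4 to 60.8 elsewhere). The 6 adrenal medulla RNAs were highest there too, at 8.22 CPM in other ECs (0 to 1.71 elsewhere). Over all cells, however, the medulla RNAs summed to 13.9 CPM in O VEH F2 and to 21.3 CPM in Y FIS F2. In the members of O VEH F2 the cortex RNAs summed to 55.7 CPM, within the 0 to 61.1 of the other libraries. Such sums rest largely on Fdx1, with 55 member UMIs over all libraries, and in Y FIS M2 the 61.1 CPM were 12 UMIs of Fdx1 and 1 of Star. The members of O VEH F2 had 7 UMIs of Fdx1, 5 of Cyp21a1, 1 of Cyp11a1 and 1 of Mc2r. Cyp21a1, a steroid hydroxylase of the adrenal cortex, stood at 19.9 CPM there and at 0 in the members of all other libraries. The part of adrenal tissue in the O VEH values was not tested.

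Single cells set other values. In Y FIS M2, 1326 of the 1365 UMIs of Glycam1, a mucin-like ligand of L-selectin known from high endothelial venules, came from 1 cell. The chemokine Ccl21a had 728 UMIs there, of which 3 cells gave 727. In Y FIS M1, 173 of the 174 UMIs of the scavenger receptor Marco came from 1 cell. In O FIS F1 the haemoglobin RNA Hbb-bs reached 10749 CPM (940 UMIs), against at most 170 CPM in the members of the other libraries. The number of cells behind the Hbb-bs value was not examined. Summed markers of other cell types in the members ran from 131 to 1053 CPM for 8 fibroblast RNAs, 15.5 to 1759 for 6 smooth muscle RNAs, 14.3 to 1578 for 6 B cell RNAs, 0 to 1090 for 7 macrophage RNAs, 0 to 30.7 for 6 T cell RNAs and 0 to 23.7 for 6 glial RNAs. The highest values lay in O FIS M1 for fibroblast, Y FIS M2 for smooth muscle, O FIS F1 for B cell and Y VEH F1 for macrophage RNAs, and their part in the levels below was not tested.

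**Figure D1:**
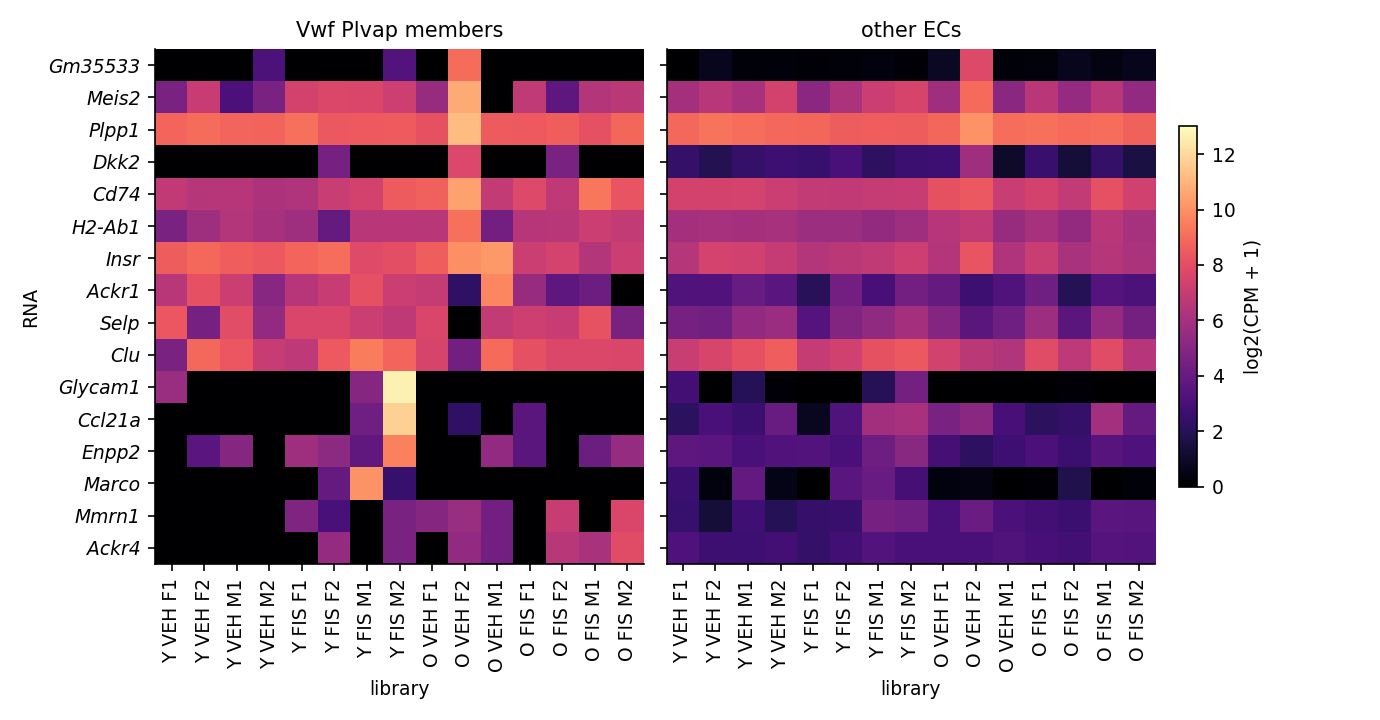
Levels, as log2(CPM + 1), of RNAs in members (one panel) and other ECs (the other panel) of each library, with libraries in columns and colour for the level. O VEH F2 is highest for Gm35533, Meis2 and Plpp1 in both panels, and Glycam1 and Marco are high in the members of single Y FIS libraries.

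The cells just inside and just outside the rule differed in some RNAs and were close in others. Of the 255 members, 80 had exactly 1 Vwf UMI, 58 had exactly 1 Plvap UMI and 139 had at least 2 of each. CPM in this paragraph pool the cells of each kind over all 15 libraries, so libraries with more UMIs weigh more. Members with 1 Vwf UMI held 8.08 CPM of Ackr1, the atypical chemokine receptor of venular endothelium, against 203 CPM in those with at least 2 UMIs of both. Among the cells left outside, 3927 met every condition but carried a Cytl1 or Pgm5 UMI. These held 205 CPM of the capillary RNA Gpihbp1 and 871 CPM of the elastin RNA Eln, against 1031 and 367 in the members. Among venous RNAs they were above the members for Nr2f2 (558 against 435 CPM), Selp (175 against 123), Nrp2 (396 against 307) and Ephb4 (206 against 196). They were below them for Vcam1 (303 against 334), Emcn (1133 against 1161), Il1r1 (111 against 166) and Ackr1 (69.1 against 125). O VEH F2 gave 525 of the 1927 member UMIs of Emcn, 133 of 555 of Vcam1 and 247 of 722 of Nr2f2, but 1 of 207 of Ackr1. The order of the close values, as for Emcn and Vcam1, can thus rest on that library. A further 603 cells lacked Lrg1, Slco2a1 and Adgrg6 (Ackr1 1.18 CPM, Nr2f2 48.0), 530 lacked Vwf (Ackr1 5.73 CPM, Rgcc 1939) and 152 lacked Plvap (Ackr1 1.40 CPM). Sampling depth enters the rule through its zeros. When each of the 43354 ECs with enough UMIs was thinned to 1500, 352 met the rule, of which 82 were members at full depth and 270 carried a Cytl1 or Pgm5 UMI at full depth.

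The 5 markers were read in every library. Vwf (chromosome 6, 125523737 to 125663642, GRCm39) stood at 1019, 1017, 452 and 293 CPM in Y VEH, 766, 674, 708 and 550 in Y FIS, 526, 589 and 909 in O VEH, and 1224, 751, 829 and 323 in O FIS. Plvap (chromosome 8, 71948674 to 71964506) stood at 687, 1201, 1019 and 928 CPM in Y VEH, 1399, 1147, 1297 and 1218 in Y FIS, 851, 1718 and 1292 in O VEH, and 961, 1073, 777 and 845 in O FIS. The groups overlapped for both genes, and O VEH F2 had the highest Plvap. Lrg1, a secreted glycoprotein that acts on TGF-beta signalling in vessels (chromosome 17, 56426283 to 56429001), ranged from 166 to 1797 CPM with its highest value in O VEH M1. Slco2a1, the prostaglandin transporter (chromosome 9, 102865911 to 102973201), ranged from 57.2 to 398, and Adgrg6, an adhesion receptor coupled to G proteins (chromosome 10, 14277458 to 14421421), from 30.7 to 293. Of the last 3 markers, Lrg1 was seen in 190 members, Slco2a1 in 127 and Adgrg6 in 66, and 21 members (8.24%) had all of them, so the gate drew mainly on Lrg1.

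The level of Vwf and Plvap in the members was not the highest among ECs. Luminal-type ECs, defined by Vwf and Cytl1 UMIs (4097 cells), had 2443 CPM of Vwf and 1173 of Plvap as means over 15 libraries, against 709 ± 264 and 1094 ± 271 (SD, n = 15) in the members. Capillary-type ECs (27003 cells with Vwf, Cytl1 and Sema3g at 0 and at least 3 of Car4, Rgcc, Gpihbp1, Cd300lg and Cd36) had 62.3 CPM of Plvap, and arterial-type ECs (3880 cells with Sema3g, at least 1 of Stmn2, Gja4, Bmx and Hey1, and no Plvap or Cytl1) had 47.1 CPM of Vwf. Cell types in these comparisons were cut from the same counts, so no test was made between them.

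The venous label was checked against 8 RNAs outside the rule. Members carried a mean of 4.21 ± 0.57 of the 8 venous RNAs Nr2f2, Ephb4, Ackr1, Selp, Vcam1, Emcn, Nrp2 and Il1r1 (SD, n = 15 libraries). Luminal-type ECs carried 4.19 ± 0.32, capillary-type 2.07 and arterial-type 1.84. The mean was thus higher in members than in capillary-type and arterial-type ECs and close to that of luminal-type ECs. Such counts rise with depth, and the median cell had 6177 UMIs in members, 6299 in luminal-type, 3412 in capillary-type and 4581 in arterial-type ECs. At an equal depth of 1500 UMIs, Nr2f2 was seen in 42.9% of members, 43.5% of luminal-type, 11.9% of capillary-type and 3.82% of arterial-type cells, while Emcn was seen in 66.4, 65.2, 71.2 and 59.7% of them. Single cells spread widely: 3 members had none of the 8 RNAs, 161 (63.1%) had at least 4 and 11 had all 8. The label is thus met in part, and the cells are named here by their rule.

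Venous RNAs differed in how far they marked the members. Vcam1, an adhesion molecule that binds leukocyte integrins, averaged 338 ± 175 CPM in members, 74.2 in other ECs and 340 in luminal-type ECs, and was above other ECs in 15 of 15 libraries. Nr2f2 averaged 394 ± 217 in members, 165 in other ECs and 493 in luminal-type ECs. Selp (P-selectin, which starts leukocyte rolling) averaged 147 ± 100 against 30.5 and 159. For these genes members and luminal-type ECs lay close together relative to the spread over libraries. Il1r1, the interleukin-1 receptor, was higher in members, at 176 ± 79.4 CPM against 46.0 in other ECs and 89.0 in luminal-type ECs, and exceeded the latter in 13 of 15 libraries. Aplnr, the apelin receptor, averaged 140 ± 79.9 in members, 62.6 in other ECs and 8.56 in luminal-type ECs. The broadly expressed Ephb4 (199 ± 55.0 against 145) and Emcn (1050 ± 365 against 946) separated the types little.

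Ackr1 was the most uneven venous RNA. In Y VEH it read 94.8, 271, 146 and 32.5 CPM, in Y FIS 92.4, 129, 269 and 141, in O VEH 124, 3.98 and 848, and in O FIS 45.7, 11.9, 17.3 and 0. O VEH thus held both one of the lowest values, in F2, and the highest, in M1, where 1 of 8 members gave 35 of the 42 UMIs, while 3 of the 4 O FIS libraries lay below every young library. The RNA was seen in 36 members (14.1%), against 1.35% of other ECs. After thinning to 1500 UMIs these shares were 6.72% and 0.582%, with 3.65% in luminal-type ECs. Of the 36 cells, 27 (75%) also had Selp, which is 37.5% of the 72 Selp cells, and 27 had Gpihbp1 but 6 had Rgcc. At least 1 of the recruitment RNAs Ackr1, Selp and Sele was seen in 84 members (32.9%), so most members had none of them at this depth. Libraries differed in this. Of the 43 members of O VEH F2, with a median of 5371 UMIs, 0 had Selp and 1 had Ackr1. In the other libraries Selp was seen in 13.3 to 50% of members.

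**Figure D2:**
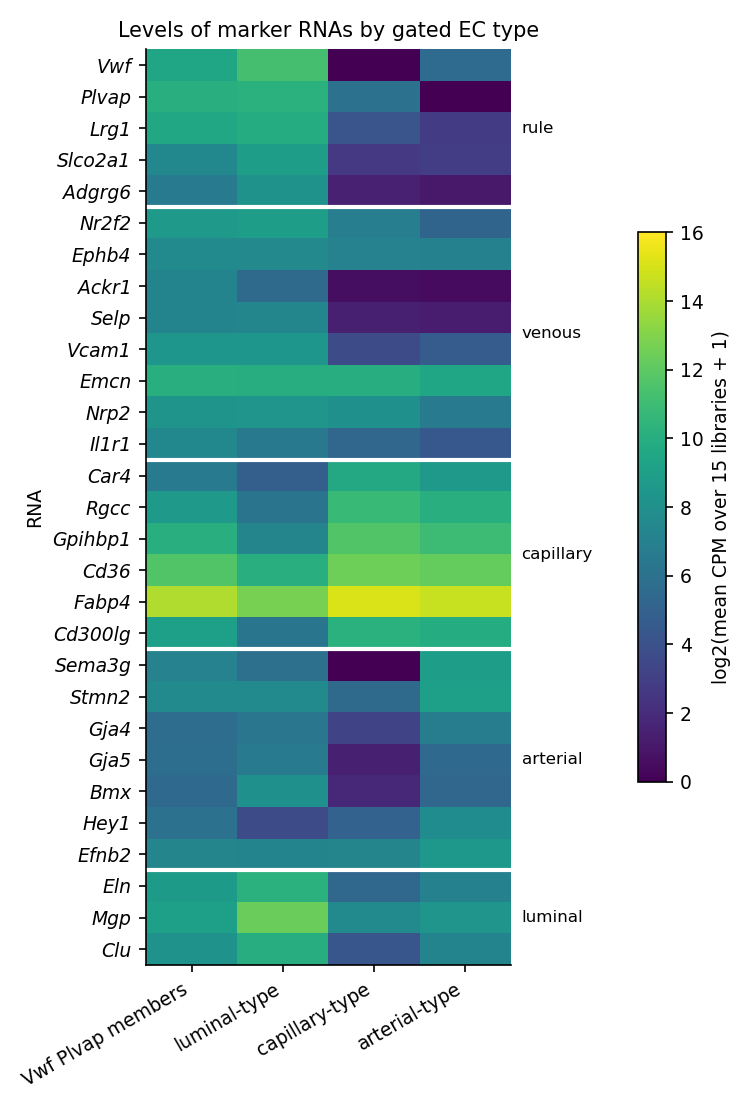
Mean levels over 15 libraries, as log2(CPM + 1), of the rule, venous, capillary, arterial and luminal marker RNAs (one axis) in members, luminal-type, capillary-type and arterial-type ECs (the other axis). Members share venous RNAs such as Vcam1 and Nr2f2 with luminal-type ECs and keep Gpihbp1 (1056 CPM), which luminal-type ECs hold at 157.

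Capillary RNAs were present at intermediate level. Gpihbp1, which carries lipoprotein lipase to the capillary surface, averaged 1056 ± 320 CPM in members against 3259 in capillary-type and 157 in luminal-type ECs. Fabp4, a fatty acid binding protein, averaged 17857 ± 5091 against 35344 and 6788, and the scavenger receptor Cd36 3250 ± 1163 against 5616 and 1089. All of these lay between the 2 types. Car4, the carbonic anhydrase of the capillary surface, averaged 91.5 ± 58.8 in members against 582 in other ECs, and Rgcc, a cell cycle regulator used as a capillary marker, averaged 392 ± 375 against 1350. Both were lower in members than in other ECs in all 15 libraries, and in O VEH F2 Rgcc came closest, at 1659 against 1666 CPM. Members carried a mean of 3.88 ± 0.40 of 6 capillary RNAs, other ECs 5.03, capillary-type ECs 5.59 and luminal-type ECs 2.38. The capillary-type value was set in part by the gate, which uses Car4, Rgcc, Gpihbp1, Cd300lg and Cd36. Per cell, 172 members (67.5%) had at least 4 of the 6 and 27 had all.

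Arterial RNAs were few in most members and dense in some, with a mean close to that of other ECs. Of 7 arterial RNAs (Sema3g, Stmn2, Gja4, Gja5, Bmx, Hey1 and Efnb2), 122 members had none, while 34 (13.3%) had at least 4 and 8 had all. The mean was 1.33 ± 0.65 in members, 1.17 ± 0.13 in other ECs, 2.00 ± 0.42 in luminal-type ECs and 3.52 in arterial-type ECs. The last value was set in part by the gate, which uses Sema3g, Stmn2, Gja4, Bmx and Hey1. The arterial chemokine Cxcl12 averaged 956 ± 588 CPM in members, 2112 in arterial-type and 167 in luminal-type ECs. Of the luminal RNAs outside the rule, the matrix protein Mgp averaged 525 ± 424 CPM in members against 5299 in luminal-type ECs, and Eln 418 ± 221 against 1167. Lymphatic RNAs other than Prox1 (Lyve1, Mmrn1, Reln and Ccl21a) were seen in 33 members, 2 of which had more than 1 of them.

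**Figure D3:**
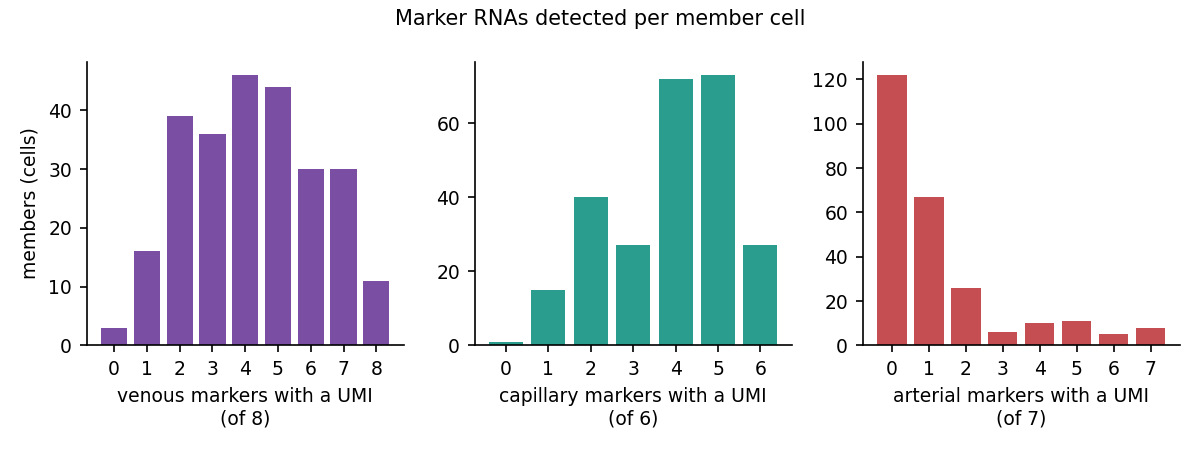
Number of member cells (vertical axes) by the number of venous (of 8), capillary (of 6) and arterial (of 7) marker RNAs with at least 1 UMI (horizontal axes). Venous counts spread over the whole range, capillary counts peak at 4 and 5 of 6, and 122 of the 255 cells have no arterial RNA.

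The RNAs with the largest ratio to other ECs are given as a description. Among 3789 RNAs of at least 50 CPM in members, out of 33696 measured, the largest ratio to other ECs was that of Cysltr1, a receptor for cysteinyl leukotrienes (chromosome X, 105617952 to 105647308), at 143 ± 128 CPM against 8.03. Itih5, of the hyaluronan-binding inter-alpha-trypsin inhibitor family (chromosome 2, 10158281 to 10261340), was next at 190 ± 144 against 15.1. The mean log2 ratios were 3.11 and 3.03. Both were higher in members in 15 of 15 libraries and were also low in luminal-type ECs, at 4.26 and 8.69 CPM. Cysltr1 was seen in 27.1% of members and Itih5 in 34.9%. Rasa4, a Ras GTPase activating protein, followed at 260 against 31.6 CPM, then G630055G22Rik at 129 against 13.9, the calcium-binding membrane protein Mctp1 at 188 against 24.2 and Lhfpl2 at 92.5 against 13.5. Further down were Tmem252, the protease Prss23 (276 against 54.3), the basement membrane collagen Col15a1 (121 against 17.9, and 10.1 in luminal-type ECs), Thsd7a (522 against 129), the cytokine receptor subunit Csf2rb2 (68.0 against 9.79) and Gm13889. Luminal-type ECs came closer for Prss23 (162 CPM) and Thsd7a (401), with members above them in 12 and 9 of 15 libraries. The other RNAs named from Rasa4 on stood at 2.71 to 68.0 CPM in luminal-type ECs. The others of the top 15 were Ackr1, Vcam1 and Plvap, of which Plvap is required by the rule. At the low end stood the haemoglobin RNA Hba-a2 (160 against 889, with 194 of its 213 member UMIs in O FIS F1), Car4, the chemokine Cxcl9 (58.3 against 239), the cell cycle inhibitor Cdkn1c (106 against 465), Rgcc, Bmp6 (139 against 546) and Lpl (228 against 904).

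Members made up 0.214 to 1.18% of the ECs of a library. The shares were 0.313, 0.652, 0.737 and 0.909% in Y VEH F1, F2, M1 and M2, and 0.379, 0.587, 0.547 and 0.964% in Y FIS. They were 0.310, 1.18 and 0.214% in O VEH F1, F2 and M1, and 0.491, 0.401, 0.280 and 0.283% in O FIS. O VEH F2 was the highest of all (exact 95% binomial interval 0.857 to 1.59%, counting error only) while the other O VEH libraries were among the lowest. The mean share was 0.652 ± 0.25% for Y VEH (SD, n = 4) against 0.619 ± 0.247% for Y FIS (n = 4), and 0.569 ± 0.533% for O VEH (n = 3) against 0.364 ± 0.102% for O FIS (n = 4). In young mice the difference of fisetin to vehicle was -0.0332 percentage points, within the spread (two-sided exact permutation test, p = 0.83).

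No share comparison passed the test. O VEH was 0.0839 points below Y VEH (difference -0.0839, exact permutation p = 0.8) and O FIS was 0.205 points below O VEH (difference -0.205, exact permutation p = 0.743), but with 3 against 4 libraries p cannot go below 0.0571. Without O VEH F2 the differences were -0.391 (exact permutation p = 0.133) and 0.102 (exact permutation p = 0.4), so the sign of the second turned on that library. O FIS against Y VEH gave a difference of -0.288 points (exact permutation p = 0.0857), where 4 against 4 can reach 0.0286. Adjusted over the 4 comparisons (Benjamini-Hochberg), the exact permutation p-values were 0.83, 0.83, 0.83 and 0.343. The comparisons share their vehicle or fisetin libraries. Shares also depend on how many cells of other types the digest released.

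**Figure D4:**
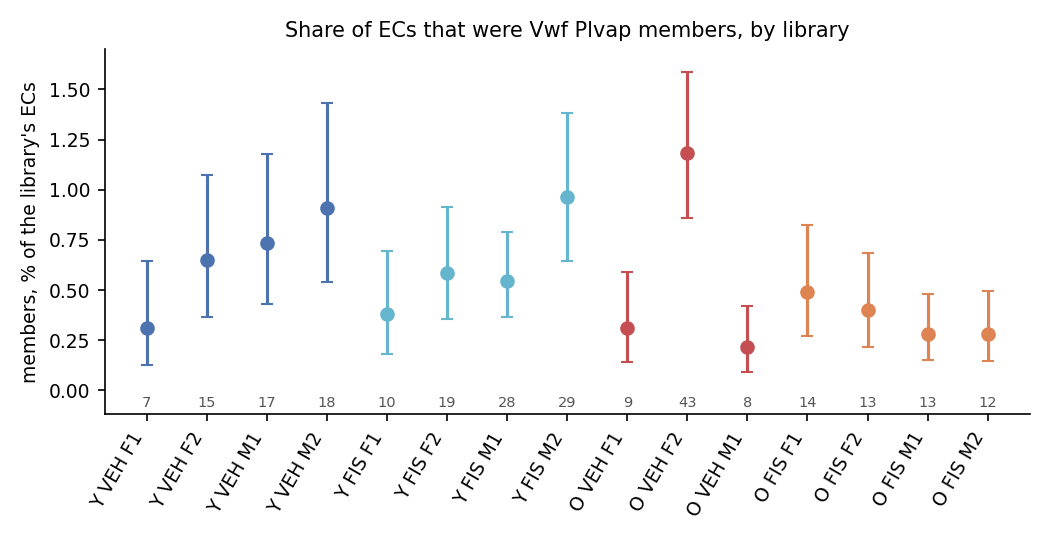
Share of ECs that were members (vertical axis, percent) in each library by group, with exact 95% binomial intervals as bars and the number of members under each point. O VEH F2 stands at 1.18%, and the 4 O FIS libraries lie between 0.280 and 0.491%, overlapping the other groups.

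RNA levels were compared on UMIs summed over the members of a library with edgeR's quasi-likelihood test, with group and sex as terms. An RNA was a differentially abundant RNA (DAR) at a Benjamini-Hochberg adjusted p under 0.05 and an absolute log2 fold change over 0.25. The design asked for at least 10 members per library, which left 12 libraries and 3957 tested RNAs: 3 of Y VEH, 4 of Y FIS, 4 of O FIS and, for O VEH, F2 alone. A group of 1 library has no replicate check, and its spread is assumed to be that of the other groups. A tested RNA had to be seen in over 10% of the members of at least 1 group. An RNA could thus enter this fit through O VEH F2 alone. A second fit, chosen after this was seen, took all 15 libraries with no minimum and tested 2455 RNAs. Both are given, as SE after each log2 fold change. Fewer cells with an RNA and less RNA per cell cannot be told apart in such sums.

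The fall of Insr with fisetin in old mice was called in both fits. Insr, the insulin receptor (chromosome 8, 3172061 to 3329647), read 137, 179, 86.3 and 145 CPM in O FIS, against 387, 990 and 1212 in O VEH, 379, 487, 383 and 334 in Y VEH, and 449, 530, 232 and 268 in Y FIS. All 4 O FIS libraries lay below every library of the other groups. Against O VEH the groups did not overlap for 33.2% of all tested RNAs on 12 libraries and 6.19% on 15, and against Y VEH for 5.64% and 2.81%. Against O VEH the log2 fold change was -2.47 ± 0.35 on 12 libraries (edgeR adjusted p = 0.000594) and -2.59 ± 0.37 on 15 (edgeR adjusted p = 0.00208). Without O VEH F2 it was -2.54 ± 0.43 (edgeR adjusted p = 0.0164). Against Y VEH it was -1.64 ± 0.29 on 12 libraries (edgeR adjusted p = 0.0318) and -1.48 ± 0.37 on 15, where it did not pass (edgeR adjusted p = 0.428).

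The cells behind the Insr levels were few. In O FIS 5 of 14, 6 of 13, 4 of 13 and 5 of 12 members had an Insr UMI. In O VEH these were 3 of 9, 32 of 43 and 5 of 8, and in M1 a single cell gave 34 of 60 UMIs. In the young vehicle libraries 2 of 7, 14 of 15, 12 of 17 and 14 of 18 members had one, and in F1 a single cell gave 14 of 16. Both the share of cells with Insr and the UMIs per such cell thus entered the sums. Other ECs held 67.8 to 133 CPM of Insr in O FIS and 78.8 to 304 in O VEH, with the highest value in F2. In them the O FIS to O VEH difference was -0.74 ± 0.43 on 15 libraries (edgeR adjusted p = 0.997) and -1.72 ± 0.34 on 12 (edgeR adjusted p = 0.0602). The difference between members and other ECs in this effect was -1.88 ± 0.51 on 15 libraries and did not pass (edgeR adjusted p = 0.891), so a change particular to the members was not shown.

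O FIS against O VEH had 27 DARs on 12 libraries (0.682% of tested RNAs), of which 2 rose and 25 fell, and 1 on 15 (0.0407%), Insr. As O VEH is F2 alone in the first count, it holds the RNAs in which that library stood apart. Some of these, such as Gm35533, passed the detection filter through F2 alone. The number of falls is thus not independent of that filter. Gm35533 fell, and over all 3 O VEH libraries it was at least 37.5-fold higher than in O FIS (129 UMIs of 365606, all from 7 cells of F2, against 0 of 319125, floor of 3 counts over the group). Meis2 fell by 4.15 ± 0.56 on the log2 scale, Inpp5d by 4.67, Mir99ahg and Igfbp5 with them, and Plpp1 was likewise highest in F2. The interferon RNAs Rsad2 (-2.87) and Ifi44 (-2.30), the class II RNAs Cd74 (-2.83), H2-Ab1 (-2.73) and H2-Aa (-2.25) and the capillary RNA Rgcc (-2.49) also fell. Eln (2.00) and Ace, the angiotensin-converting enzyme (2.98), rose. On 15 libraries Eln was at -0.000237 and none of these passed. With O VEH F2 left out the direction turned for Meis2 (1.59), Mir99ahg (2.66), Plpp1 (0.23), Rsad2 (0.064), H2-Ab1 (0.79) and Eln (-0.70), and Cd74 was at -0.015 and H2-Aa at -0.035.

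O VEH against Y VEH shares with this comparison the F2 library and the filter that an RNA could pass through F2 alone. On 12 libraries it gave 18 DARs (0.455%), 15 higher and 3 lower. Cd74, the invariant chain of class II molecules, was higher by 4.83 on the log2 scale, H2-Aa by 3.76, H2-Ab1 by 3.61 and H2-Eb1 by 3.38. Meis2 (4.81), Mir99ahg (6.06), Igfbp5 (4.75), Inpp4b (4.21) and Hipk2 (3.66) rose, and Il31ra (-3.10), Eln (-2.42) and Cdk8 (-1.91) fell. On all 15 libraries 0 RNAs passed (0%) by edgeR, with 173 at an unadjusted p under 0.05. There Cd74 was at 3.17 (edgeR adjusted p = 0.0844), Il31ra at -2.15 (edgeR adjusted p = 0.0954) and Cdk8 at -1.20 (edgeR adjusted p = 0.172), and for each of them all 3 O VEH libraries lay on 1 side of all 4 of Y VEH. Over all RNAs 6.56% had groups that did not overlap, and 0% were called. For Meis2 (3.46) and H2-Aa (2.48) the groups overlapped on 15 libraries. Once O VEH F2 was left out, the direction turned for Meis2 (-0.79), Mir99ahg (-1.42) and Eln (0.50). B cell and macrophage RNAs in the members of that library summed to 243 and 318 CPM, against 92.8 and 77.3 in O VEH F1 and 263 and 101 in M1, and their part in the class II values was not tested.

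Old against young, with fisetin and vehicle averaged, gave 11 DARs on 12 libraries (0.278%), 6 higher and 5 lower. Cd74 rose by 2.73 ± 0.32 (edgeR adjusted p = 8.84e-05), with H2-Ab1 and H2-Aa at 2.21 each. Cd74 read 118, 86.6, 92.0 and 73.2 CPM in Y VEH, 79.2, 136, 175 and 367 in Y FIS, 402, 1388 and 121 in O VEH, and 217, 107, 639 and 300 in O FIS. Old libraries were mostly higher, yet the ages overlapped at Y FIS M2, O VEH M1 and O FIS F2. With all 15 libraries the change was 1.89 (edgeR adjusted p = 0.129) and without O VEH F2 it was 1.22 (edgeR adjusted p = 0.436). Plpp1 (1.06) and Mir99ahg (3.22) were other increases. In the fit without O VEH F2 Plpp1 and Mir99ahg changed sign, to -0.29 and -0.55.

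Among the decreases with age, Ackr1 fell by 4.07 ± 0.73 on 12 libraries (edgeR adjusted p = 0.0107). On 15 libraries it was at -1.08 (edgeR adjusted p = 0.897). Itih5 fell by 1.62 ± 0.33 on 12 libraries (edgeR adjusted p = 0.0334). It read 142, 487, 115 and 212 CPM in Y VEH, 502, 337, 188 and 198 in Y FIS, 61.9, 91.5 and 20.2 in O VEH, and 160, 83.5, 104 and 156 in O FIS. Old libraries reached 160 at most and 2 of the 8 young ones lay below that. On 15 libraries it was at -1.60 ± 0.30 and did not pass (edgeR adjusted p = 0.0526), and without O VEH F2 at -1.83 (edgeR adjusted p = 0.108).

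Itih5 moved the same way outside the members. In other ECs of the 15 libraries it fell by 1.13 with age (edgeR adjusted p = 0.0397). Cdk8, a kinase of the Mediator complex, and Cmss1, a ribosome-related protein, fell in members by 1.30 (edgeR adjusted p = 0.016) and 1.27 (edgeR adjusted p = 0.0334) on 12 libraries and stood at -0.94 and -0.98 on 15 (edgeR adjusted p = 0.0526 for each). In other ECs they fell by 1.21 (edgeR adjusted p = 0.00138) and 1.19 (edgeR adjusted p = 0.00062). Cdk8 belongs to a list of 7 RNAs that were grouped under the name library-wide. In O VEH against Y VEH on 12 libraries, 2 of its 6 tested RNAs were positive. Their median was -1.63, against 0.00 over all tested RNAs, with O VEH as F2 alone. Cmss1 read 4158 to 6924 CPM in the members of the young libraries, 1352 to 2665 in O VEH and 2636 to 4871 in O FIS. O VEH thus lay apart from the young groups and O FIS overlapped them. Against Y VEH alone, O VEH did not overlap for 6.56% of all tested RNAs on 15 libraries. The cause of the falls shared by members and other ECs was not tested. Chp2, a calcineurin-like protein, fell by 2.04 in members, and by 1.34 in other ECs (edgeR adjusted p = 0.007). On all 15 libraries 0 RNAs passed in members with age (0%) by edgeR, with 159 at an unadjusted p under 0.05.

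Ageing effects were set against those in other ECs of the same libraries. On 12 libraries 3 RNAs (0.0758%) differed between the types, Mir99ahg (3.18), the potassium channel Kcnt2 (2.95) and the glutamate receptor subunit Gria3 (2.58), as the age effect in members minus that in other ECs (edgeR adjusted p = 0.0256 for each). On 15 libraries 0 differed by edgeR, with 125 at an unadjusted p under 0.05. Neither Itih5, Cdk8, Cmss1 nor Cd74 was among those 3.

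Y FIS against Y VEH gave 1 DAR on 12 libraries (0.0253%), Ptn, which encodes the heparin-binding growth factor pleiotrophin (chromosome 6, 36680960 to 36796991). It read 0 in all 4 Y VEH libraries and 158, 208, 132 and 56.4 CPM in Y FIS, against 30.9, 59.7 and 0 in O VEH and 22.9, 0, 0 and 22.2 in O FIS. In counts these were 74 UMIs of 587509 in Y FIS and 0 of 388011 in Y VEH, at least 16.3-fold higher with a floor of 3 counts over the group. The 74 UMIs came from 1, 5, 1 and 4 cells of the F1, F2, M1 and M2 libraries, 11 of 86 members. Ptn passed the detection filter through Y FIS alone, the group in which it was high, so its test is not independent of that filter. Y FIS and Y VEH did not overlap for Ptn, as for 6.44% of all tested RNAs on 12 libraries and 3.22% on 15. The edgeR adjusted p of Ptn was 0.0222 on 12 libraries, 0.0728 on 15 and 0.0453 on the 14 without O VEH F2. Ptn was thus called in the fits of 12 and 14 libraries and not in that of 15. Other ECs held 13.1 to 19.4 CPM in Y FIS and 5.51 to 34.3 in Y VEH, with a difference of -0.11 (edgeR adjusted p = 0.998). Smooth muscle RNAs in the members summed to 130 to 353 CPM in Y VEH and 66.0 to 1759 in Y FIS, and fibroblast RNAs to 330 to 779 and 308 to 952.

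Below the threshold, the smallest p-values in this comparison belonged to Enpp2 (4.20), the enzyme autotaxin, and to Pglyrp1, Tagln and Meis2 among positive differences. Of the UMIs of Enpp2 in Y FIS M2, 3 cells gave 145 of 159. Among negative ones they were Akap12, a scaffold of protein kinase A (-1.48), Depp1 (-1.63), the death receptor Fas (-1.42), Thrsp (-1.26) and Arid5b. None passed. On all 15 libraries 0 passed by edgeR (0%), with 110 at an unadjusted p under 0.05.

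O FIS against Y VEH, which differ in both age and treatment, gave 2 DARs on 12 libraries (0.0505%), and Insr was the one that fell. On 15 libraries 0 RNAs passed (0%) by edgeR, with 116 at an unadjusted p under 0.05. Among RNAs below the threshold, S100a6, a calcium-binding protein, read 403, 963, 736 and 651 CPM in Y VEH and 309, 358, 276 and 334 in O FIS. The groups did not overlap, as for 5.64% of RNAs on 12 libraries and 2.81% on 15, and the log2 fold change was -1.29 on 12 libraries (edgeR adjusted p = 0.0682). In O VEH, S100a6 gave 13 of 64655 member UMIs in F1, 119 of 251428 in F2 and 21 of 49523 in M1. Per UMI, O VEH F1 thus lay below every O FIS library, and F2 and M1 lay above them. In other ECs S100a6 stood between 417 and 671 CPM in all 15 libraries. The effect in members minus that in other ECs was -1.46 ± 0.25 on 12 libraries (edgeR adjusted p = 0.0202), where 0.0505% of RNAs passed, and -1.30 ± 0.28 on 15, where it did not pass (edgeR adjusted p = 0.133).

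**Figure D5:**
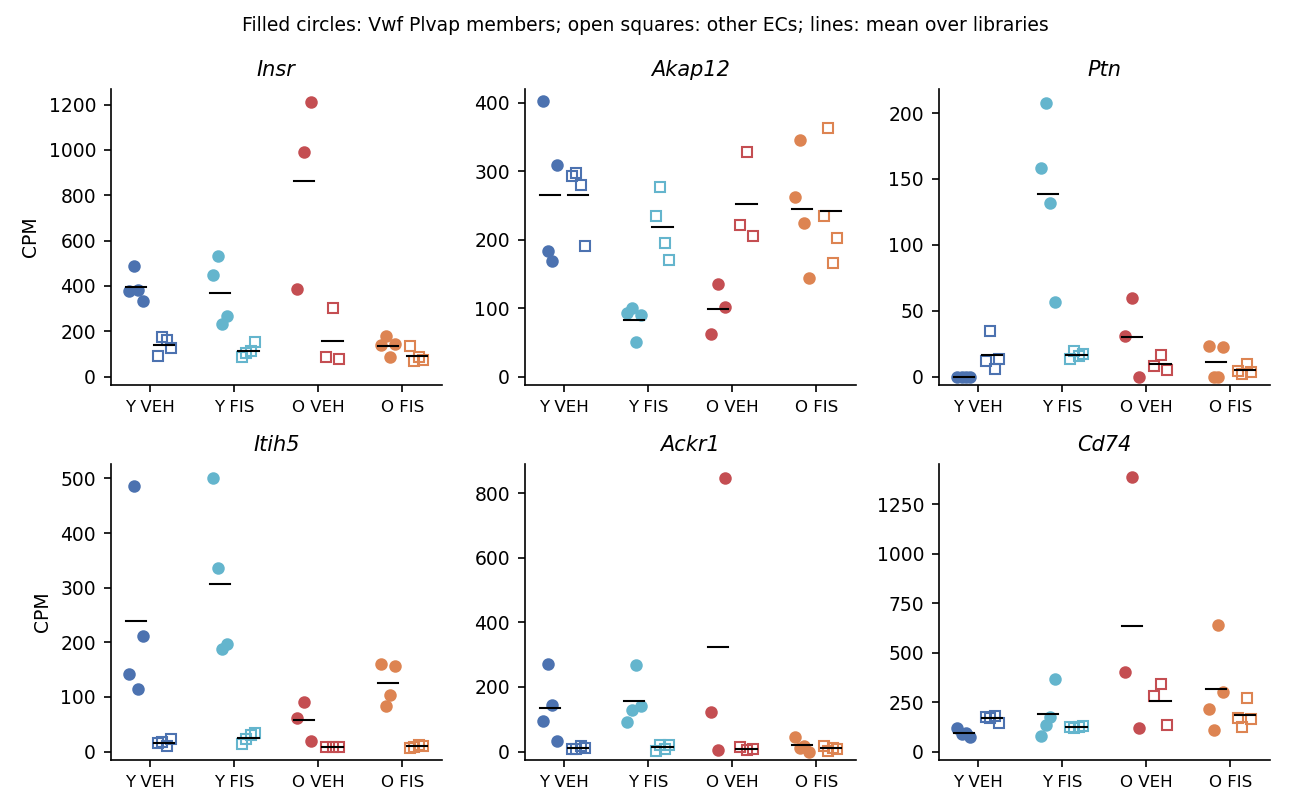
Levels in CPM (vertical axes) of Insr, Akap12, Ptn, Itih5, Ackr1 and Cd74 in each library by group, with filled circles for members, open squares for other ECs and lines for group means. Insr is lowest in the members of the 4 O FIS libraries, and Ptn is 0 in all Y VEH members.

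The fisetin effect differed between ages for 13 RNAs on 12 libraries (0.329%), all with a lower value in old mice. Meis2, Plpp1, Mir99ahg, Inpp4b and others of these stood apart in O VEH F2. On 15 libraries 1 RNA passed (0.0407%), Akap12, with a difference of 2.87 ± 0.51 (edgeR adjusted p = 0.035). Without O VEH F2 it was at 3.19 ± 0.62 and did not pass (edgeR adjusted p = 0.102). It read 403, 184, 169 and 309 CPM in Y VEH against 92.4, 100, 50.1 and 89.4 in Y FIS, and 61.9, 135 and 101 in O VEH against 263, 346, 224 and 145 in O FIS. The UMIs were 17, 17, 22 and 38 in Y VEH, 7, 14, 8 and 19 in Y FIS, and 23, 29, 13 and 13 in O FIS. In O VEH they were 4, 34 and 5, so F1 and M1 rest on few molecules. Each group of 1 age lay wholly to 1 side of the other, lower with fisetin in young and higher in old mice, where 3.22% of RNAs in young and 6.19% in old mice did not overlap. On 12 libraries it did not pass (2.53, edgeR adjusted p = 0.084), and within young mice alone the change was -1.59 on 15 libraries (edgeR adjusted p = 0.137).

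Female and male libraries differed in 4 RNAs on 12 libraries (0.101%) and in 2 on 15 (0.0815%). Xist (8.6) was higher in females, and the Y-linked Ddx3y (-5.01) and Uty were lower, as the labels state. Eln was the other, higher in females by 1.5 ± 0.23 on 12 libraries (edgeR adjusted p = 0.00301) but at 0.84 on 15 (edgeR adjusted p = 0.952).

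The functional lists are given by counts, beside the median over all tested RNAs of 0.00 for O VEH against Y VEH, 0.03 for O FIS against O VEH, 0.01 for Y FIS against Y VEH and 0.00 for old against young, all on the log2 scale and 12 libraries. The shares of all tested RNAs called in these comparisons were 0.455, 0.682, 0.0253 and 0.278%, against which the calls of each list below are to be read, and O VEH is F2 alone in this fit. Of 19 venous identity RNAs 15 were tested. Their medians were 0.12, 0.02, 0.24 and -0.10 in these comparisons, and the only call was Ackr1 with age. Of 28 leukocyte recruitment RNAs 17 were tested, with medians of -0.15, 0.27, -0.06 and -0.31 and again only Ackr1 called. Of 20 haemostasis RNAs 13 were tested, with medians of 0.56, -0.44, 0.35 and 0.17 and none called. The call of Ackr1 was lost on 15 libraries, where it was at -1.08 with age (edgeR adjusted p = 0.897). Without O VEH F2 it was at -0.63 with age (edgeR adjusted p = 0.882), and in O FIS against O VEH it was then called lower at -4.45 ± 0.85 (edgeR adjusted p = 0.0305), where 0.11% of RNAs were called and 1 cell gave 35 of the 42 Ackr1 UMIs of O VEH M1.

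Medians of the vessel-type lists differed between the fits. Of 18 arterial RNAs 16 were tested, with 3 positive in O VEH against Y VEH (median -0.73) and 14 positive in O FIS against O VEH (median 1.44), none called. Of 12 luminal RNAs 9 were tested, with medians of -1.39 and 1.69 and Eln called in each. Of 17 capillary RNAs 16 were tested, with medians of -0.19 and 0.07, and Rgcc was called lower in O FIS. On 15 libraries the medians in these comparisons were -1.07 (1 of 15 positive) and 0.82 for arterial, -0.29 and 0.75 for luminal and 0.36 (13 of 16 positive) and -0.17 for capillary RNAs. That fit differs in its O VEH and Y VEH libraries, in the minimum of members and in the RNAs tested, which cannot be told apart here, and in it the capillary medians turned sign while the arterial and luminal ones did not. On the 14 libraries without O VEH F2, the luminal median in O VEH against Y VEH was 0.44. In Y FIS against Y VEH, 3 of the 16 capillary RNAs were positive (median -0.49), none called.

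Class II RNAs held most of the calls among immune lists. Of 7 class II RNAs 4 were tested, with 4 called higher in O VEH against Y VEH (median 3.68), 3 called lower in O FIS against O VEH (median -2.66) and 3 called higher with age (median 2.21). Over all RNAs 0.455, 0.682 and 0.278% were called. The O VEH value is that of F2 alone. Once F2 was left out, 3 were tested and 0 called, with medians of 1.45, -0.015 and 1.05, and in O FIS against O VEH H2-Ab1 turned to 0.79 and Cd74 stood at -0.015. On 15 libraries 3 were tested and 0 called with age, with a median of 1.56. Of 19 class I RNAs 17 were tested, with 16 positive with age (median 0.49) and none called. Of 41 interferon RNAs 28 were tested, with medians of 0.37 in O VEH against Y VEH and -0.26 in O FIS against O VEH, where Ifi44 and Rsad2 were called lower. On 15 libraries no member of these lists was called in any of the 4 group comparisons or with age.

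Most of the senescence RNAs followed were too sparse in these cells to be tested. Of the 18 senescence and secretory (SASP) RNAs the study followed, a list drawn in part from these libraries and so not independent of them, 4 were tested and none was called, with medians of -0.54, -0.25, -0.62 and -0.15 in the order above. Cdkn2a (p16) had 0 UMIs in all members. Cdkn1a (p21) averaged 186 CPM in members against 361 in other ECs. Cxcl12 read 379, 628, 858 and 1766 CPM in Y VEH, 766, 1305, 426 and 983 in Y FIS, 2026, 370 and 505 in O VEH, and 1075, 739, 432 and 2080 in O FIS. The groups of Cxcl12 overlapped throughout. Lists for fenestrae and caveolae (10 of 11 tested), VEGF and angiopoietin (11 of 14), Notch (10 of 14), BMP and TGF-beta (16 of 21), shear and nitric oxide (12 of 15), matrix (19 of 21), lipid uptake (10 of 14), prostaglandin handling (5 of 12) and the immediate early response (17 of 22) had none called in any comparison on 12 libraries.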

How the data were processed

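The deposited values are unnormalized UMI counts of each gene in each barcode, which the authors made with Cell Ranger 8.0.1 on GRCm39 per the submitters' processing notes, which also name Seurat 5.2.0. Barcodes were filtered and members gated on these counts. CPM is per 1000000 UMIs. Members, lists and tests were chosen with earlier results of these data known. Member UMIs were summed per library (12 libraries with at least 10 members) and tested with edgeR 4.0.16 in R 4.3.3 (TMM, filterByExpr, RNAs in over 10% of the members of at least 1 group), after a check on simulated data. That check covered Y FIS vs Y VEH, O FIS vs Y VEH and old vs young. It did not cover O VEH vs Y VEH or O FIS vs O VEH, nor a library that stands apart. Ratios to other ECs used a pseudocount of 5 CPM. Shares had two-sided exact permutation tests (scipy 1.17.1). Doublets were called with Scrublet in scanpy 1.11.5 (expected rate 0.08) and kept. Genes named were the DARs with the largest changes whose groups did not overlap, the DARs of the age, sex and interaction contrasts, the smallest p-values where DARs were under 5, called list members and the top 15 by ratio. The fits of 15 and 14 libraries were added after the data were seen. Alternatives were DESeq2 1.42.0, no low-count filter, a 2-UMI rule, a replicate block, no sex term, only the compared groups, and leaving out each library. Intervals cover counting error only. No sequences were read. Some results are not reported here.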

Additional observations from a re-analysis of the deposited data

Results flagged for a closer look

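In Y FIS, the F2 library lay apart from the other 3 for Lhfpl2, at 158 CPM against 79.2 to 81.4. It was 1 of 87 groups of 4 libraries examined, where chance gives about 4.35.

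The effect of fisetin differed between old and young mice by the interaction test of edgeR on 12 libraries for 13 RNAs. Those reported here, old minus young on the log2 scale, were -8.69 for Ptn, -6.22 for Inpp5d, -6.05 for Meis2, -5.69 for Mir99ahg, -5.19 for Inpp4b, -4.19 for Cd74, -4.10 for Fam167b, -3.05 for Ipo11, -2.80 for H2-Ab1, -2.74 for Arhgap26, -2.26 for Plpp1 and -2.19 for Insr. O VEH was the F2 library alone in this fit, and an RNA could pass the filter through F2 alone, or through Y FIS alone as Ptn did. Ptn had 0 UMIs in every Y VEH library and 2, 0, 0 and 2 in O FIS F1, F2, M1 and M2. Inpp5d had 0, 0, 1 and 1 in O FIS. Counts this near 0 do not fix the size of these log2 values. On 15 libraries the only RNA was Akap12, with a difference of 2.87, and without O VEH F2 none passed by edgeR (Akap12 at 3.19), with 158 at an unadjusted p under 0.05.

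The effect of age differed between members and other ECs on 12 libraries for Mir99ahg (3.18), Kcnt2 (2.95) and Gria3 (2.58), and the O FIS to Y VEH effect differed for S100a6 (-1.46). None of these differences passed on 15 libraries.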

How the results depend on the processing

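Of 210 recomputed shares and counts of DARs, 126 stayed within the limits set, 74 moved and 10 turned sign. The 126 are not a measure of stability for the shares. With 3 against 4 libraries or fewer, the exact permutation p cannot go below 0.0571. This covers every share test that uses O VEH or leaves out a library. Such a test could not pass under any setting, so only the size and sign of its difference can be compared. Of 1468 recomputed values of single RNAs, 1065 kept direction and call, 381 lost the call and 22 turned sign. The limits are depth (255 cells), the lone O VEH library of the 12-library fits and values set by single cells, and the cause of a change was not tested unless the setting itself shows it. A minimum of 20 members could not be fitted, as 3 libraries were left.

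Counts of DARs follow in the order O VEH vs Y VEH, O FIS vs O VEH, Y FIS vs Y VEH, O FIS vs Y VEH, old vs young, the fisetin effect in old minus in young, and female vs male. Without a filter on low counts they were 76, 73, 26, 37, 62, 53 and 43, and 39 for age in members minus other ECs. With all 15 libraries they were 0, 1, 0, 0, 0, 1 and 2, and 0 for that difference. Without O VEH F2 (14 libraries) they were 0, 3, 1, 1, 0, 0 and 2. The rule of 2 UMIs left 6 libraries, with Y VEH M1, O VEH F2 and O FIS F1 each alone in its group. Its counts of DARs are therefore no check on the comparisons. DESeq2 gave 13 for O FIS vs O VEH, 5 for O FIS vs Y VEH, 21 for old vs young and 7 for the fisetin difference. With only the compared groups the counts were 67 for O VEH vs Y VEH, 2 for Y FIS vs Y VEH and 4 for O FIS vs Y VEH, and without the sex term O FIS vs Y VEH gave 0.

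The replicate numbers were not treated as pairs in the main fits. Deviations of same-numbered libraries correlated at -0.083 to 0.200 over 21 pairs, 6 of them over 0.1. The male pairs among them were all positive (0.00889 to 0.200), and the female pairs ran from -0.083 to 0.151. Pairs with unlike numbers ran from -0.245 to 0.217. Whether libraries of the same number shared a batch is not settled by these values and was not tested. With a replicate block in place of sex the counts were 28 for O VEH vs Y VEH, 2 for Y FIS vs Y VEH, 4 for O FIS vs Y VEH and 23 for old vs young.

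Leaving out 1 library at a time, the counts ran from 13 to 34, 13 to 47, 0 to 1, 0 to 7, 5 to 25, 6 to 24 and 3 to 7 in the order above, and from 0 to 8 for age in members minus other ECs. O VEH F2 could not be left out of the 12-library fit for the comparisons that use O VEH, so these ranges do not cover it. Without it, the 14-library fit gave 0 for O VEH vs Y VEH, 3 for O FIS vs O VEH, and 0 each for old vs young, the fisetin difference and age in members minus other ECs. The share differences ran from -0.391 to 0.0935 points for O VEH vs Y VEH, -0.382 to 0.102 for O FIS vs O VEH, -0.148 to 0.0522 for Y FIS vs Y VEH and -0.402 to -0.203 for O FIS vs Y VEH. As a share of all cells the difference was 0.0263 for O VEH vs Y VEH and 0.0423 for Y FIS vs Y VEH. It was 0.00162 for O FIS vs O VEH after thinning and 0.0752 for Y FIS vs Y VEH with the rule of 2 UMIs.

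On 15 libraries Eln turned sign in O FIS vs O VEH (-0.000237). Without O VEH F2 the turned values in O VEH vs Y VEH were -0.79 for Meis2, -0.52 for Fam167b, 0.50 for Eln, -0.51 for Plpp1 and -1.42 for Mir99ahg. In O FIS vs O VEH they were 0.91 for Fam117b, 1.59 for Meis2, 0.39 for Fam167b, 0.067 for Limch1, -0.70 for Eln, 0.064 for Rsad2, 0.23 for Plpp1, 2.66 for Mir99ahg, 0.12 for Fkbp5, 0.79 for H2-Ab1 and 0.000156 for Arhgap26. In old vs young they were -0.29 for Plpp1 and -0.55 for Mir99ahg, and in the fisetin difference 0.44 for Plpp1, 1.74 for Mir99ahg and 0.65 for H2-Ab1.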
